A study of Rattus norvegicus with 372 samples.

Results

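Primary rat hepatocytes were exposed for 24 h to 450 µM chloramphenicol, the higher of its 2 concentrations, and their transcriptome was compared with that of vehicle wells by TempO-Seq. All wells labelled with this chemical and dose were taken, which gave 6 wells of the whole transcriptome (WT) assay. The same 6 lysates were also run by the smaller S1500+ (ST) panel, so chloramphenicol at 450 µM accounts for 12 of the 372 libraries of the series. The study treated hepatocytes of male Wistar rats with a set of mostly pharmaceutical chemicals to examine how reproducible such profiles are, and its WT table holds 30 treatments, vehicle and medium alone included. Batch 1 and batch 2 each used the hepatocytes of another rat, with its own library preparation and sequencing. Each batch had 3 wells of 450 µM chloramphenicol and 3 wells of 18 µM chloramphenicol, and the vehicle wells, which held 0.5% DMSO, numbered 3 in batch 1 and 6 in batch 2. Every well, vehicle included, held 25000 freshly isolated cells in a collagen sandwich, in a medium with insulin, EGF and 100 nM dexamethasone, and every chemical was given in 0.5% DMSO. The 3 wells of a treatment within a batch are therefore technical replicates from 1 rat, and 2 rats are the only biological replicates.

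Chloramphenicol is an antibacterial drug that binds the large subunit of the bacterial ribosome and blocks peptide bond formation. Mitochondria descend from bacteria and keep ribosomes of a similar kind, so the drug also blocks the translation of the few respiratory chain subunits that mitochondrial DNA encodes, while the cytosolic ribosome is spared. Hepatocytes answer many foreign compounds through the nuclear receptors CAR and PXR, which switch on cytochrome P450 (CYP), glucuronosyltransferase and transporter genes. They answer amino acid shortage, endoplasmic reticulum stress and mitochondrial stress through the integrated stress response, in which the transcription factor ATF4 switches on genes for amino acid synthesis and transport.

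In TempO-Seq, adjacent detector oligos are ligated on the transcript and the ligated product is sequenced, so each count is a read of a probe and not a molecule. The 450 µM wells had 3915685 to 6162621 WT reads in batch 1 and 7228655 to 8224306 in batch 2, against 5492941 to 8264980 and 5788931 to 7199877 in the vehicle wells. Levels are given as counts per 1000000 (CPM) on library sizes scaled by the trimmed mean of M-values (TMM). The 6 hepatocyte markers were present in all wells, with a summed level of 34823 to 42430 CPM in the 9 vehicle wells, and the 6 endothelial markers together reached at most 3.96 CPM there. In batch 1 the chloramphenicol wells stood on plate 5 and all vehicle wells on plate 4, so plate and treatment cannot be told apart there. In batch 2 they shared plate 3 with 3 of the 6 vehicle wells, and in both batches the 450 and 18 µM wells stood on the same plate.

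Against vehicle, 450 µM chloramphenicol raised genes of xenobiotic metabolism most and lowered genes of the integrated stress response and of some plasma proteins. A gene was called a DEG when edgeR's quasi-likelihood test gave a Benjamini-Hochberg adjusted p under 0.05 in each batch by itself, with the same sign. Of the 10191 genes tested, 252 (2.47%) were higher and 487 (4.78%) were lower, 739 (7.25%) in all. The L2FC and its standard error (SE) given for a gene are from the fit of both batches, with batch as a term. By this L2FC, 34 of the higher and 218 of the lower genes changed at least 2-fold. Batch 1 alone had 881 DEGs (8.64%) and batch 2 alone 3310 (32.5%). When libraries were scaled by their total counts in place of TMM, the L2FC of the median gene moved from 0.01 to 0.14, and the split of DEGs turned from 34.1% higher to 54.1% higher (454 higher and 385 lower). Fitted with the 450 µM and vehicle wells alone, 28 genes were higher and 106 lower in both batches, and 26 of the 75 named DEGs passed.

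The CAR and PXR targets had the highest median L2FC of the 38 gene lists. Of 19 members tested, 10 were higher in both batches, against 2.47% of all genes, and the other 9 did not pass. The median L2FC of the list was 0.85, against 0.01 over all genes. Cyp2b2, the phenobarbital-inducible P450 that serves as the classical readout of CAR, stood at 3.60, 5.71 and 2.05 CPM in the vehicle wells of batch 1 and at 66.9, 76.5 and 101 CPM in its 450 µM wells. In batch 2 its vehicle wells ran from 0.825 to 3.33 CPM (median 1.95) and its 450 µM wells stood at 14.3, 39.9 and 42.6 CPM. The groups did not overlap in either batch, and the L2FC was 4.22 ± 0.29 (SE), an 18.6-fold rise (adjusted p = 4.03e-28, edgeR).

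**Figure D1:**
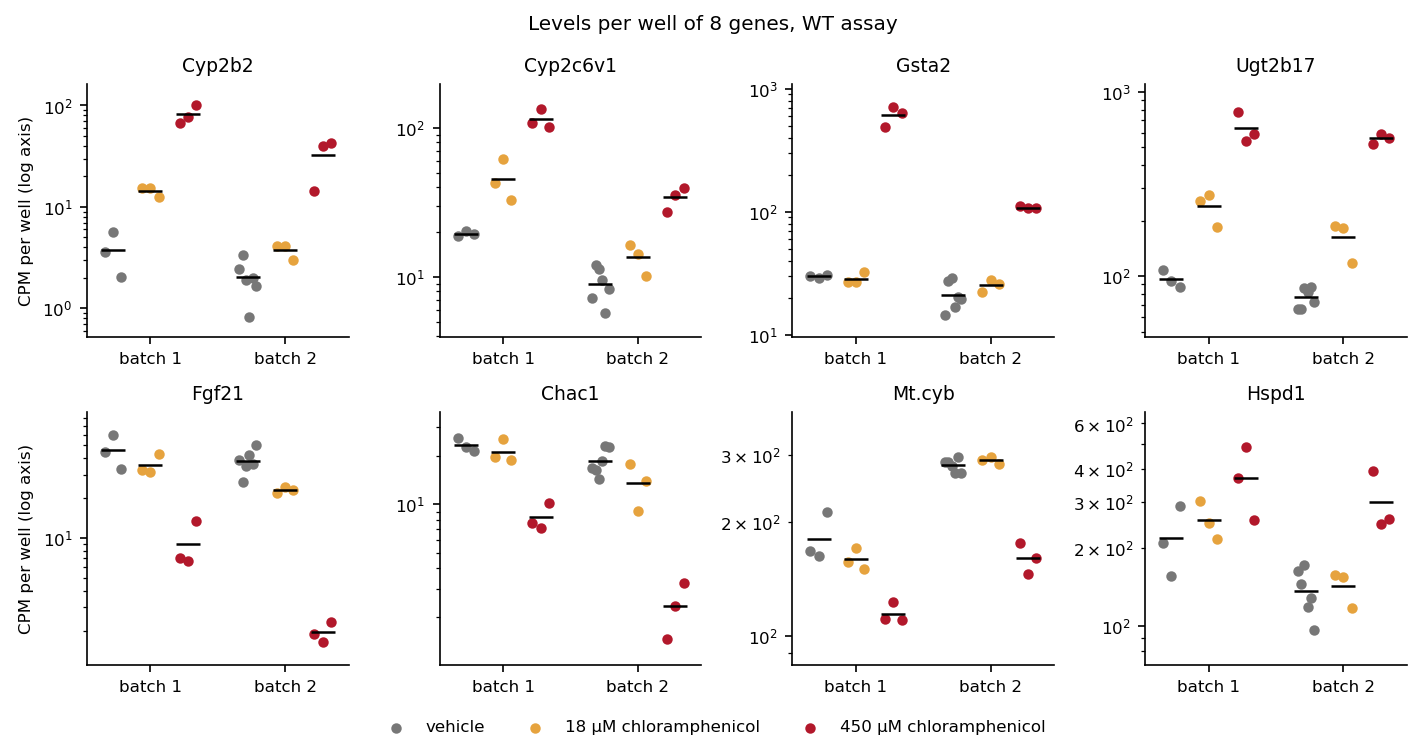
CPM per well on a log axis of 8 genes in the WT assay, for vehicle (grey), 18 µM chloramphenicol (orange) and 450 µM chloramphenicol (red), by batch, with a bar at the mean of each group. Cyp2b2, Cyp2c6v1, Gsta2 and Ugt2b17 are higher in every 450 µM well than in any vehicle well of the batch, Fgf21, Chac1 and Mt.cyb are lower, and Hspd1 overlaps vehicle in batch 1.

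Its near-identical paralog Cyp2b1 was covered by few reads in the WT assay, with 0 to 3 counts in each vehicle well and 5 to 25 counts in each 450 µM well. Cyp2b1 was called higher in both batches (L2FC 2.93 ± 0.45), and how the counting divides reads between the paralogs is uncertain. Cyp2c6v1, another P450 that the list holds, was given outside the rule for named genes and was chosen after its values were seen. Its vehicle wells of batch 1 stood at 18.9, 20.4 and 19.3 CPM and its 450 µM wells at 107, 134 and 101 CPM. In batch 2 vehicle ran from 5.77 to 12.1 CPM (median 8.91) and 450 µM chloramphenicol gave 27.4, 35.3 and 39.8 CPM. Both P450 enzymes were thus higher in every 450 µM well than in any vehicle well of their batch, and Cyp2c6v1 rose 5.02-fold.

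Genes that support the P450 system changed less. Por, the reductase that passes electrons to every microsomal P450, was at 92.9 to 114 CPM in the vehicle wells of batch 1 and at 195, 140 and 277 CPM with 450 µM chloramphenicol, an L2FC of 0.82 ± 0.11 over both batches. Alas1, the rate-limiting enzyme of heme synthesis, had an L2FC of 0.73 ± 0.13. Among the 12 genes of heme synthesis it was the 1 that rose, and the other 11 did not pass, against 2.47% of all genes higher. Ephx1, the microsomal epoxide hydrolase, rose 2.25-fold from 944, 792 and 806 CPM in batch 1 to 2081, 1492 and 2275 CPM.

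P450 genes that hepatocytes express without an inducer moved in both directions. Of 18 tested, 2 rose, 5 fell and 11 did not pass, against 2.47% higher and 4.78% lower of all genes, and the median L2FC was -0.30. Cyp2c24 was at 9.97, 9.82 and 8.53 CPM in the vehicle wells of batch 1 and at 81.3, 105 and 61.7 CPM with 450 µM chloramphenicol, and rose 7.42-fold over both batches. Cyp2c22, which hydroxylates retinoic acid, rose 4.98-fold. The falls were led by Cyp4f4, a fatty acid hydroxylase, from 37.0, 33.9 and 37.2 CPM to 10.3, 15.9 and 8.05 CPM in batch 1 (L2FC -1.79 ± 0.18), and were joined by 3 genes of the Cyp2d family. Cyp2c11, the P450 of adult male rat liver, had an L2FC of 0.56 ± 0.28 and did not pass in either the fit of both batches (adjusted p = 0.110, edgeR) or batch 1, while it passed in batch 2 (L2FC 0.55, adjusted p = 0.0401, edgeR).

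Several conjugating enzymes and the export pump of the bile canaliculus rose too. Of 13 glucuronosyltransferases and sulfotransferases tested, 7 were higher, 1 was lower and 5 did not pass, against 2.47% higher and 4.78% lower of all genes, with a median L2FC of 0.69. Ugt2b17, which attaches glucuronic acid to steroids, stood at 108, 93.6 and 87.7 CPM in the vehicle wells of batch 1 and at 775, 543 and 590 CPM with 450 µM chloramphenicol. In batch 2 vehicle ran from 65.9 to 87.2 CPM (median 77.0) and the 450 µM wells stood at 521, 591 and 563 CPM. The rise was 7.20-fold and of like size in the 2 batches (L2FC 2.72 and 2.87). Sult2a2, a hydroxysteroid sulfotransferase, rose 4.82-fold, and Ugdh, which makes the UDP-glucuronic acid that these enzymes use, had an L2FC of 1.05 ± 0.16. Abcc2, the pump that exports glucuronides and glutathione conjugates into bile, was at 58.4 to 67.8 CPM in the vehicle wells of batch 1 and at 192, 176 and 177 CPM with 450 µM chloramphenicol, a 3.15-fold rise over both batches.

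The glutathione transferases Gsta2 and Gsta5 rose too, and more in batch 1. Gsta2, an alpha class glutathione transferase that CAR, PXR and NRF2 can all raise, was at 30.3, 29.1 and 30.9 CPM in the vehicle wells of batch 1 and at 492, 714 and 631 CPM with 450 µM chloramphenicol. In batch 2 vehicle ran from 14.5 to 29.2 CPM (median 20.0) and the 450 µM wells stood at 111, 107 and 108 CPM. The groups did not overlap in either batch, and the L2FC was 4.34 in batch 1 and 2.35 in batch 2. Gsta5 had L2FCs of 4.52 and 1.99, and how the counting divides reads between related glutathione transferases is uncertain. The rule for the largest changes also named 3 gene models without an assigned function, LOC100910877 (L2FC 4.01 ± 0.22), AABR07035343.1 (4.14 ± 0.32) and AABR07035374.1 (3.32 ± 0.21).

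NRF2 is the transcription factor that answers oxidants and electrophiles. Of 27 of its targets tested, 4 were higher and 23 did not pass, against 2.47% of all genes higher, and the median L2FC was 0.28. Txnrd1, the cytosolic thioredoxin reductase, was at 112, 63.0 and 135 CPM in the vehicle wells of batch 1 and at 314, 237 and 113 CPM with 450 µM chloramphenicol (L2FC 1.29 ± 0.24), so that 1 of the treated wells lay within the vehicle range there. Nqo1, a quinone reductase, had an L2FC of 0.81 ± 0.15 without overlap in either batch. Of the 7 AhR targets, Gsta2 and Nqo1 rose, against the same 2.47%, and 5 did not pass. These lists overlap: Ephx1 counts among the risen targets of both NRF2 and CAR and PXR. Gsta2 also counts among the CAR and PXR targets, and Nqo1 also among those of NRF2.

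**Figure D2:**
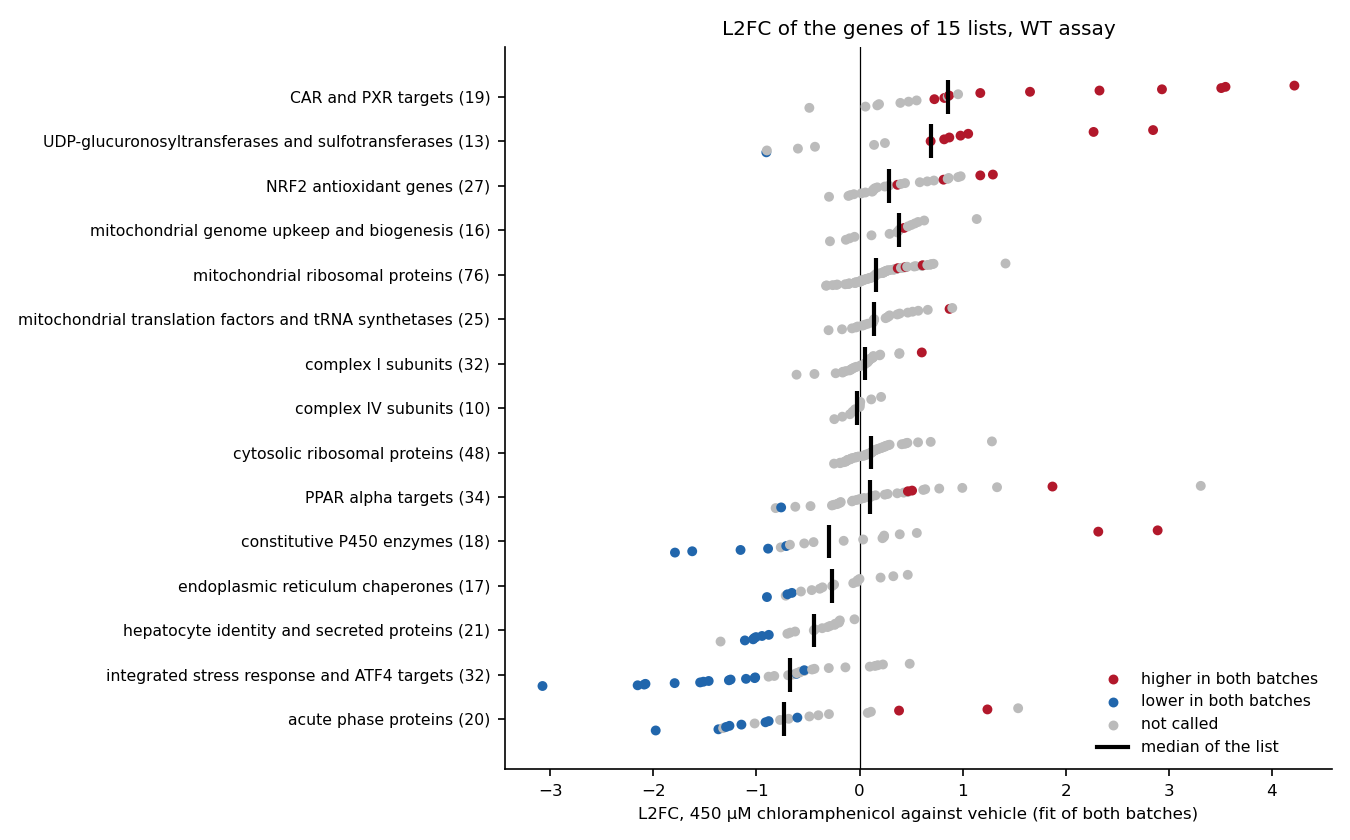
L2FC of 450 µM chloramphenicol against vehicle for each gene of 15 lists, from the WT fit of both batches, with the number of genes tested after each list's name and a black bar at the list's median. Red points were higher and blue points lower in both batches, grey points did not pass, and the medians run from 0.85 for the CAR and PXR targets to -0.73 for the acute phase proteins.

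Genes of the integrated stress response fell. Of 32 genes of this list, ATF4 targets among them, 15 were lower in both batches, against 4.78% of all genes, and 17 did not pass. The median L2FC was -0.67, with -0.49 in batch 1 and -1.06 in batch 2. Fgf21, a hormone of fasting and mitochondrial stress that hepatocytes secrete, had the largest fall of any gene called in both batches, by the L2FC of the fit of both. Its vehicle wells stood at 44.7, 59.1 and 33.1 CPM in batch 1 and ran from 26.3 to 50.0 CPM (median 37.3) in batch 2. With 450 µM chloramphenicol they stood at 6.99, 6.64 and 13.4 CPM in batch 1 and at 1.87, 1.65 and 2.32 CPM in batch 2. No treated well reached the vehicle range, and the fall was 8.43-fold over both batches (L2FC -3.08 ± 0.26, adjusted p = 2.99e-21, edgeR).

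Aldh1l2, a mitochondrial enzyme of folate metabolism, fell 4.45-fold, from 35.2, 45.4 and 35.8 CPM to 10.0, 14.6 and 12.2 CPM in batch 1 and from a median of 35.4 CPM to 5.42, 4.95 and 5.23 CPM in batch 2. Ddit4, an inhibitor of mTORC1 that many stresses raise, fell 4.26-fold. Other members of the list, chosen after their values were seen, belong to serine, proline and folate metabolism or act as regulators. Chac1, which degrades glutathione, had an L2FC of -2.08 ± 0.22, and Trib3, which restrains ATF4, had -1.02 ± 0.16. The L2FC was -1.51 ± 0.21 for Phgdh and -1.10 ± 0.14 for Psat1, successive enzymes of serine synthesis. Pycr1, of proline synthesis, had -1.01 ± 0.16 and Mthfd2, of mitochondrial folate metabolism, -1.25 ± 0.18. Pck2, which makes phosphoenolpyruvate in mitochondria, had -1.27 ± 0.21.

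Among the transcription factors, Atf5 fell and Atf4 and Ddit3 were not called in both batches. Atf4, which is controlled mainly at the level of translation, was at 323, 330 and 307 CPM in the vehicle wells of batch 1 and at 294, 253 and 297 CPM with 450 µM chloramphenicol, an L2FC of -0.19 that did not pass (adjusted p = 0.168, edgeR). Atf4 passed in batch 2 (L2FC -0.42, adjusted p = 9.83e-05, edgeR) and in the fit of both batches (-0.30 ± 0.07, adjusted p = 0.000381), and its treated wells lay below the vehicle wells in both batches. Atf5, a factor that directs the mitochondrial unfolded protein response, fell with an L2FC of -1.32 ± 0.18. Ddit3, which encodes the stress factor CHOP, went opposite ways in the 2 batches. Its 450 µM wells stood at 20.8, 21.0 and 22.5 CPM in batch 1, below vehicle at 23.4, 25.7 and 29.3 CPM (L2FC -0.29, adjusted p = 0.284, edgeR). In batch 2 they stood at 44.0, 32.4 and 34.8 CPM, above vehicle at 20.7 to 29.2 CPM (L2FC 0.49, adjusted p = 0.00567, edgeR), and the difference between batches did not pass (0.77 ± 0.22, adjusted p = 0.0909, edgeR). Gdf15, a secreted protein of mitochondrial stress, had an L2FC of -0.14 ± 0.15 over both batches and was not called.

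The promoters of this list were searched for TGATGNAA, the core of the element to which ATF4 binds with C/EBP proteins, on both strands of the 250 bases before each start. RefSeq promoters of the assembly GRCr8 were matched for 27 of the 32 genes, and 7 of the 27 held the motif, against 899 of all 27457 promoters (3.27%) and 138 of the 7550 promoters of genes tested (1.83%). Among the 12 matched genes that were lower, 5 held it, and 2 of the 15 that were not called did. The 5 are shown because they fell together, each as 61 bases on the gene's strand with the motif, or its complement, in capitals. A match describes letters in a window and does not show that a factor binds there.
Chac1, chr3:126795938-126795998, plus strand: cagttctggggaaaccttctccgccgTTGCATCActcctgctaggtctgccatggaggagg
Fgf21, chr1:105221485-105221545, minus strand: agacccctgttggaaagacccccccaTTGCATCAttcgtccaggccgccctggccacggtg
Trib3, chr3:161275534-161275594, minus strand: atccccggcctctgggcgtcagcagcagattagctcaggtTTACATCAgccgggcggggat
Pck2, chr15:32997603-32997663, plus strand: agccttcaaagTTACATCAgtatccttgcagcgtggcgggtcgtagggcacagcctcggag
Pycr1, chr10:106420909-106420969, minus strand: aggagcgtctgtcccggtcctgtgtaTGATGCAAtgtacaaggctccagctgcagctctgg
Chac1 and Fgf21 share the letters TTGCATCA, which are the complement of the TGATGCAA of Pycr1, and Trib3 and Pck2 share TTACATCA.

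Mitochondrial genes, those of the compartment whose ribosome the drug binds, mostly did not pass the test. The single gene matched that mitochondrial DNA encodes, Mt.cyb for cytochrome b of complex III, stood at 168, 162 and 212 CPM in the vehicle wells of batch 1 and at 110, 123 and 110 CPM with 450 µM chloramphenicol. In batch 2 vehicle ran from 269 to 297 CPM (median 285) and the 450 µM wells stood at 176, 146 and 160 CPM. The level of this transcript fell 1.68-fold (L2FC -0.75 ± 0.11, adjusted p = 1.96e-09, edgeR), without overlap between the groups in either batch. The ST panel measures the same gene as CYTB, which was not called in both batches there. Its ST wells stood at 927, 769 and 809 CPM in vehicle and at 603, 405 and 794 CPM with 450 µM chloramphenicol in batch 1, where 1 treated well lay within the vehicle range (L2FC -0.43, adjusted p = 0.0692, edgeR), and its L2FC in batch 2 was -1.02 (adjusted p = 4.03e-13, edgeR).

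Of 76 mitochondrial ribosomal proteins, which the nucleus encodes, 3 were higher, against 2.47% of all genes, and 73 did not pass. At edgeR's unadjusted p under 0.05 in both batches 12 were higher and 0 lower, and DESeq2 called 4 higher, where 703 of all 10191 genes were higher at the unadjusted p and 302 by DESeq2. In the fit of both batches, where 16.1% of all genes were higher, 25 of the 76 were higher and 0 lower, and 62 had an L2FC above 0. Mrps18b, of the small subunit, was at 63.5, 65.7 and 55.4 CPM in the vehicle wells of batch 1 and at 87.6, 73.2 and 99.3 CPM with 450 µM chloramphenicol (L2FC 0.61 ± 0.09). Mrpl35 and Mrpl15, of the large subunit, had L2FCs of 0.45 ± 0.11 and 0.37 ± 0.06. The median L2FC of these 76 genes was 0.16, and that of the 48 cytosolic ribosomal proteins, none of which passed in both batches, was 0.11. At edgeR's unadjusted p under 0.05 in both batches 3 of the 48 were higher and 0 lower, near the share of all genes given for that threshold, and DESeq2 called 0. In the fit of both batches 12 of the 48 were higher and 0 lower, and 32 had an L2FC above 0.

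Of 25 mitochondrial translation factors and tRNA synthetases, Qrsl1, a subunit of the amidotransferase that makes mitochondrial glutaminyl-tRNA, rose (L2FC 0.87 ± 0.12) and 24 did not pass, against 2.47% of all genes higher. Tufm, the mitochondrial elongation factor that carries aminoacyl-tRNA, had an L2FC of -0.02 ± 0.10. Among the nuclear-encoded subunits of the respiratory chain, 1 of 32 for complex I was called, Ndufa5 (L2FC 0.60 ± 0.14), as were 0 of 11 for complexes II and III, 0 of 10 for complex IV and 0 of 13 for ATP synthase. With edgeR's unadjusted p under 0.05 in both batches, 1 was higher for complex I, 2 for complexes II and III, 0 for complex IV and 1 for ATP synthase, where 703 of all 10191 genes were higher, and DESeq2 called 1, 1, 0 and 0. The medians of these 4 lists lay between -0.03 and 0.08, against 0.01 over all genes. Of 37 assembly factors, Cox15 and Ndufaf5 rose, against the same 2.47%, and 35 did not pass. Cox15, which makes the heme A of complex IV, had an L2FC of 0.54 ± 0.09 and Ndufaf5, of complex I, 0.39 ± 0.10. In the fit of both batches, where 16.1% of all genes were higher, 12 of the 37 were higher and 1 lower. In that fit 7 of the 25 translation factors and tRNA synthetases were higher and 0 lower. The 4 subunit lists, in the order above, had 3, 3, 1 and 1 higher and 0, 2, 0 and 2 lower.

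Among mitochondrial chaperones, Hspd1 was the single gene that rose in both batches. Hspd1, the chaperonin HSP60 of the mitochondrial matrix, was at 209, 155 and 290 CPM in the vehicle wells of batch 1 and at 372, 489 and 255 CPM with 450 µM chloramphenicol. In batch 2 vehicle ran from 96.2 to 172 CPM (median 136) and the 450 µM wells stood at 393, 247 and 257 CPM. The groups overlapped in batch 1 and not in batch 2, and the L2FC was 0.97 ± 0.15. Its partner Hspe1, HSP10, had an L2FC of 0.34 in batch 1 and 1.23 in batch 2 and passed in batch 2 alone. Against 2.47% higher and 4.78% lower of all genes, Hspd1 rose and Atf5 fell of the 19 chaperones and proteases and 17 did not pass, among them Lonp1, the matrix protease (L2FC 0.23 ± 0.15). Of 16 genes of genome upkeep and biogenesis, Polg, the mitochondrial DNA polymerase, alone rose in both batches, against the same 2.47%. Its L2FC was 0.43 ± 0.08, and Tfam, which packages mitochondrial DNA, had an L2FC of -0.10 ± 0.13. The median L2FC of the 16 genes was 0.38, against 0.01 over all genes, and 12 had an L2FC above 0. In the fit of both batches, where 16.1% of all genes were higher, 8 of the 16 were higher and 0 lower. In that fit 5 of the 19 chaperones and proteases were higher and 1 lower.

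Several transcripts of plasma proteins, the main product of the hepatocyte, fell. Of 21 genes of hepatocyte identity and secretion, 6 were lower, against 4.78% of all genes, and 15 did not pass, with a median L2FC of -0.44. Alb, which encodes albumin, was at 12078, 11624 and 10332 CPM in the vehicle wells of batch 1 and at 6669, 4595 and 7817 CPM with 450 µM chloramphenicol. In batch 2 vehicle ran from 12255 to 14278 CPM (median 13464) and the 450 µM wells stood at 5191, 5672 and 5608 CPM. Each treated well was below each vehicle well of its batch, and the fall was 2.16-fold (L2FC -1.11 ± 0.10). Apoa1, the main protein of HDL, had an L2FC of -1.03 ± 0.12 and Tf, which carries iron in plasma, -1.02 ± 0.13. The 6 also include Foxa3, a transcription factor. Apoa2, another protein of HDL that the list does not hold and that was chosen after its values were seen, rose in both batches (L2FC 1.28 ± 0.19). The summed level of the 6 hepatocyte markers was 19207 to 29751 CPM in the treated wells of batch 1 and 19177 to 20643 CPM in those of batch 2, against at least 34823 CPM in vehicle, and in lysates of whole wells fewer cells of a type and less RNA per cell cannot be told apart.

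Among 20 acute phase proteins, which the liver secretes in inflammation, 8 fell, 2 rose and 10 did not pass, against 4.78% lower and 2.47% higher of all genes, with a median L2FC of -0.73. A2m, a broad protease inhibitor, fell 3.94-fold, from 4625, 5022 and 3554 CPM to 1707, 1206 and 1921 CPM in batch 1 and from a median of 3674 CPM to 723, 592 and 594 CPM in batch 2. Kng1, the kininogen, had an L2FC of -1.37 ± 0.18 and C3, the central complement component, -1.30 ± 0.13. Crp, C-reactive protein, went the other way with an L2FC of 1.24 ± 0.20, from 95.8 to 121 CPM in the vehicle wells of batch 1 to 325, 220 and 323 CPM, and was chosen after its values were seen.

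Several genes fell in 3 metabolic lists, where most members did not pass, against 4.78% of all genes lower. Of 38 genes of amino acid breakdown and the urea cycle, 6 fell, 1 rose and 31 did not pass. Uroc1, of histidine breakdown, had an L2FC of -1.75 ± 0.25 and Mat1a, which makes S-adenosylmethionine, -1.20 ± 0.14. Of 23 genes of the tricarboxylic acid cycle and pyruvate entry, 3 fell and 20 did not pass. The 3 were Pc, pyruvate carboxylase (L2FC -1.05 ± 0.19), Idh2, the mitochondrial NADP-dependent isocitrate dehydrogenase (-0.85 ± 0.09), and Suclg2, a succinyl-CoA ligase subunit. Of 22 genes of cholesterol synthesis, 4 fell, among them Msmo1 (L2FC -0.76 ± 0.21) and Insig1 (-0.66 ± 0.14), and 18 did not pass, while the median L2FC was -0.51 in batch 1 and -0.03 in batch 2. By its own fit batch 1 had 11 lower, where 5.71% of all genes were lower, and batch 2 had 4 lower and 2 higher, where 16.6% were lower and 15.9% higher.

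PPARα is the nuclear receptor that drives fatty acid oxidation in the liver. Of 34 of its targets, 3 rose, 1 fell and 30 did not pass, against 2.47% higher and 4.78% lower of all genes, and the median L2FC was 0.10. Cyp4a2, a fatty acid omega-hydroxylase, was at 9.97, 10.5 and 12.3 CPM in the vehicle wells of batch 1 and at 23.9, 29.4 and 24.8 CPM with 450 µM chloramphenicol (L2FC 1.87 ± 0.30). Fabp1, the fatty acid binding protein of liver, fell with an L2FC of -0.76 ± 0.29. Of 28 genes of glycolysis and hypoxia, 1 rose and 27 did not pass, although 14 were lower in batch 2 by itself, where 16.6% of all genes were lower, and of 16 genes of fatty acid synthesis, Acly fell and 15 did not pass.

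In lists of stress and growth, most members did not pass, and the counts that fell stand against 4.78% of all genes. Of 17 endoplasmic reticulum chaperones, 3 fell, P4hb (L2FC -0.90 ± 0.12), Pdia6 (-0.70 ± 0.14) and Calr (-0.66 ± 0.15), which fold proteins of the secretory pathway, and 14 did not pass. Of 20 p53 targets, Gadd45a fell and 19 did not pass. Cdkn1a, the p53 target that stops the cell cycle, was at 4.41, 3.76 and 8.05 CPM in the 450 µM wells of batch 1, against 4.56, 7.14 and 4.60 CPM in vehicle. Of 25 cell cycle genes, Ccnd1, cyclin D1, fell (L2FC -0.95 ± 0.23) and 24 did not pass. Of 16 cytosolic tRNA synthetases, Cars and Lars fell and 14 did not pass.

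Among all genes with a mean of at least 5 CPM, the largest falls after Fgf21 were of genes that belong to no liver pathway among the lists. Vil1, villin of microvilli, fell 7.25-fold, from 24.1, 22.3 and 23.2 CPM to 5.47, 3.98 and 4.36 CPM in batch 1 and from a median of 20.0 CPM to 1.77, 1.30 and 2.09 CPM in batch 2. Acta1, the actin of skeletal muscle, fell 6.92-fold, from 168, 159 and 151 CPM to 41.0, 18.8 and 52.5 CPM in batch 1. Neither gene's treated wells reached its vehicle wells in either batch. Stc1, a secreted glycoprotein, fell 5.85-fold and G0s2, which inhibits the lipase ATGL, 4.98-fold. Lamb3, a laminin chain of the basement membrane, fell 5.24-fold, and Hs3st2, a heparan sulfate sulfotransferase, 4.73-fold.

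Markers of other liver cells were lower too in part. Of 5 stellate cell and fibroblast markers tested, Tagln (L2FC -1.87 ± 0.27), an actin-binding protein of contractile cells, and Reln (-1.58 ± 0.12), a matrix glycoprotein, fell, against 4.78% of all genes lower. The summed level of 9 stellate markers, most of it Reln, was 375 to 401 CPM in vehicle and 174 to 209 CPM with 450 µM chloramphenicol in batch 1, and 236 to 303 against 93.4 to 106 CPM in batch 2. The 11 Kupffer cell and leukocyte markers on the panel summed to 54.4 to 68.2 CPM in vehicle against 46.8 to 58.5 CPM in batch 1 and to 34.1 to 46.0 against 28.3 to 30.8 CPM in batch 2. The 5 biliary markers, most of it Epcam, summed to 37.0 to 44.2 CPM in vehicle against 22.5 to 30.6 CPM in batch 1 and to 39.9 to 47.4 against 21.5 to 27.2 CPM in batch 2. Krt7 was at 0 in every vehicle well. The part of these cells in the falls was not tested.

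Whether the effect of 450 µM chloramphenicol differed between the batches was tested in one fit. The batches differ in rat, library preparation, sequencing and the plate of the vehicle wells, which cannot be told apart. Of the 10191 genes, 38 (0.373%) differed, 33 (0.324%) with a lower L2FC in batch 2 and 5 (0.0491%) with a higher one, and for 25 the difference was at least 1 on the log2 scale. The count was 65 by DESeq2, 82 with vehicle of the same plate in batch 2 and 14 with only the wells compared. Rises were smaller in batch 2 for Gsta2, by -2.00 ± 0.31 (adjusted p = 2.3e-06, edgeR), and for Gsta5, by -2.54 ± 0.33. Falls were larger in batch 2 for Fgf21 (L2FC -2.33 and -4.26), for Atf5 (-0.77 and -1.99) and for Aldh1l2 (-1.67 and -2.72). Cyp2b2 (L2FC 4.43 and 3.99) and Mt.cyb (-0.66 and -0.81) did not pass this test. In batch 2, 26 of the 32 integrated stress response genes were lower by that batch's own fit, where 16.6% of all genes were lower, and in batch 1 there were 15, where 5.71% were lower.

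**Figure D3:**
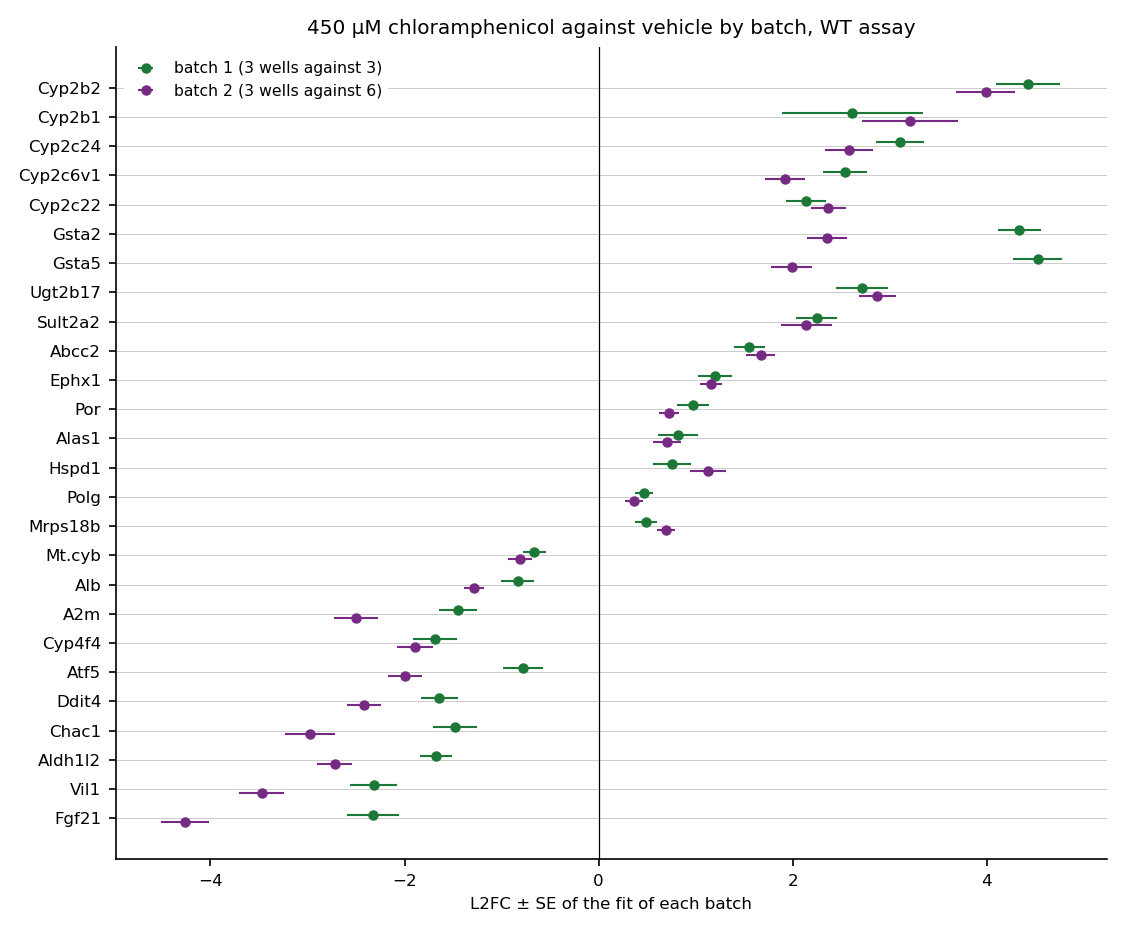
L2FC of 450 µM chloramphenicol against vehicle ± SE from the WT fit of each batch, for 26 genes, with batch 1 in green and batch 2 in purple. The batches lie on the same side of 0 for each gene, apart by about 2 log2 units for Gsta2, Gsta5 and Fgf21 and close together for Ugt2b17, Ephx1 and Mt.cyb.

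Few genes passed the test at the lower concentration. At 18 µM, Ugt2b17 was the single gene called in both batches (0.00981% of the genes tested), from 108, 93.6 and 87.7 CPM in vehicle to 256, 275 and 185 CPM in batch 1, and there were 6 DEGs (0.0589%) in batch 1 and 174 (1.71%) in batch 2. At an unadjusted p under 0.05 in both batches (edgeR), 20 genes were higher and 25 lower, and DESeq2 called 1 higher and 0 lower. Cyp2b2 was at 15.3, 15.5 and 12.6 CPM at 18 µM in batch 1, above each vehicle well, and at 4.16, 4.14 and 2.98 CPM in batch 2, where it overlapped vehicle.

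Since the 450 and 18 µM wells stood on the same plate in both batches, they were also compared with each other. Of the 10191 genes, 154 (1.51%) were higher and 415 (4.07%) lower at 450 µM in both batches (5.58% in all), so that 27.1% of the DEGs were higher, against 62.9% with libraries scaled by their total counts. With only the wells compared, 23 were higher and 62 lower, and without the third 18 µM well of batch 1, 84 and 273. Of the 19 CAR and PXR targets, 11 were higher and 8 did not pass, with a median L2FC of 0.79, and of the 32 integrated stress response genes, 15 were lower and 17 did not pass, with a median of -0.72. Mt.cyb was lower at 450 than at 18 µM (L2FC -0.68 ± 0.11), where its 18 µM wells stood at 157, 171 and 150 CPM in batch 1 and at 292, 297 and 284 CPM in batch 2. Alb had an L2FC of -1.13 ± 0.11 and Fgf21 of -2.53 ± 0.27. Hspd1, Polg and Mrpl35 had L2FCs of 0.80, 0.40 and 0.39 and were not called in both batches here. Txnrd1, Qrsl1 and Ndufa5, which rose against vehicle, were not called in both batches here either. Of the 739 DEGs against vehicle, 403 were called here with the same sign. This comparison shares its 450 µM wells with that against vehicle, so the values are given side by side and neither is a repeat of the other.

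To set these genes beside other strong treatments of the same plates, the 450 µM wells were compared with the mean of 10000 µM acetaminophen, 300 µM indomethacin, 15 µM ketoconazole, 100 µM sulfasalazine and 200 µM WY14643, a PPARα agonist. In both batches 1315 genes (12.9%) were higher and 1281 (12.6%) lower with chloramphenicol, so that 50.7% of the DEGs were higher, against 89.9% with total counts. Abcc2, Cyp2c24 and Ugt2b17 were higher with chloramphenicol than with the mean of the 5, by an L2FC of 2.35 ± 0.11, 2.46 ± 0.15 and 2.34 ± 0.17. Of the 19 CAR and PXR targets, 7 were higher, 2 were lower and 10 did not pass. Mt.cyb was lower by -1.44 ± 0.10. Of the 34 PPARα targets, 26 were lower and 8 did not pass, in a comparison whose 5 treatments include this agonist. For indomethacin and sulfasalazine the paper also reports enrichment of peroxisome and metabolic gene sets, as for WY14643. The part of each treatment in this difference was not tested. Of the 32 integrated stress response genes, 19 were lower, 1 was higher and 12 did not pass, and Ddit3 was lower by -2.09 ± 0.16. Of the 17 endoplasmic reticulum chaperones, 14 were lower and 1 higher, and of the 48 cytosolic ribosomal proteins 21 were lower and 2 higher. Por (-0.79 ± 0.10) and Polg (-0.58 ± 0.07), which rose against vehicle, were lower than the mean of the 5, and Idh2 (0.66 ± 0.07), which fell against vehicle, was higher.

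**Figure D4:**
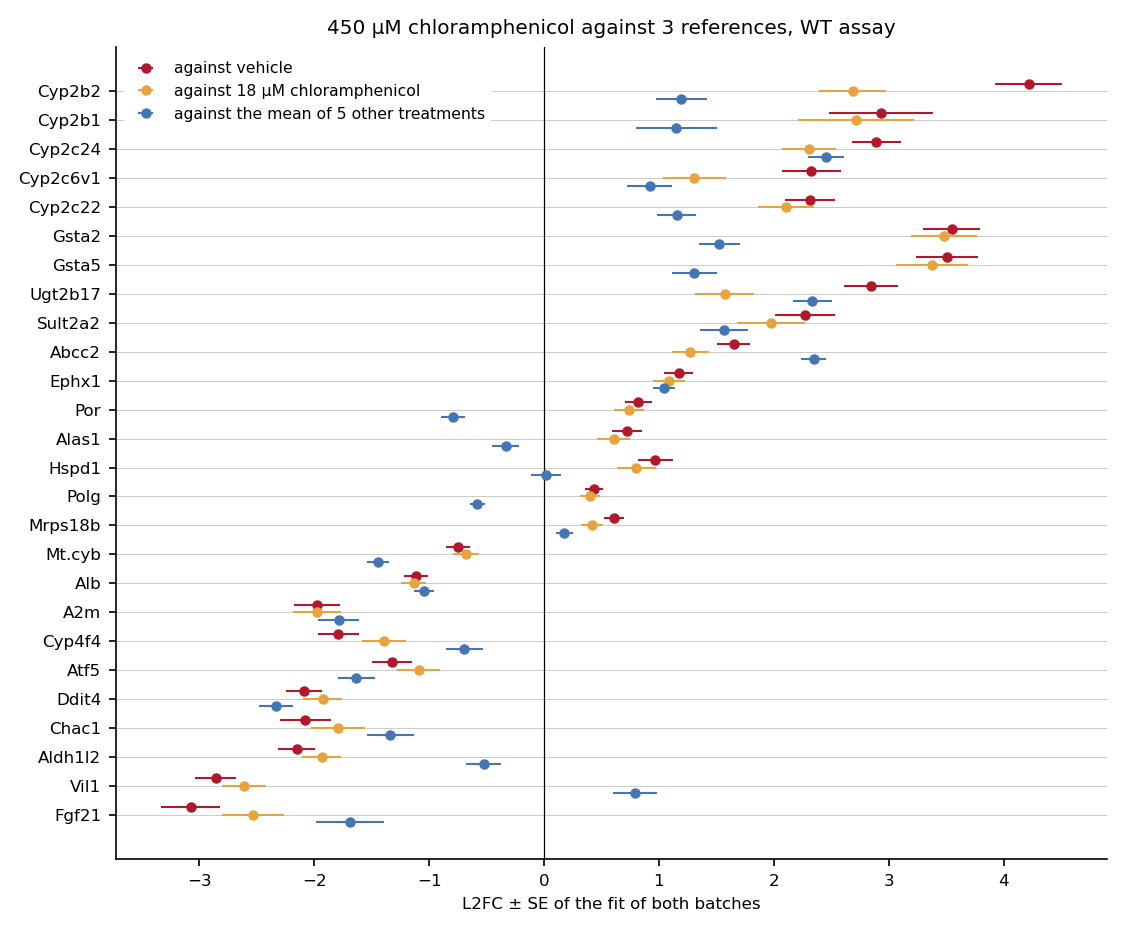
L2FC ± SE from the WT fit of both batches of 26 genes at 450 µM chloramphenicol against vehicle (red), against 18 µM chloramphenicol (orange) and against the mean of 5 other treatments (blue), which all share the 450 µM wells. The red and orange points lie on the same side of 0 for each gene, while the blue points of Por, Polg, Alas1 and Vil1 lie on the other side.

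The same lysates were measured with the ST panel, whose libraries are shallower and whose probes cover fewer genes. In both batches 138 (7.84%) of its 1760 tested genes were higher and 152 (8.64%) lower at 450 µM than in vehicle. Of the named genes, 43 were called in the WT assay and tested by ST, all 43 had the same sign there and 33 were called, and no gene called by both assays had opposite signs. Over all 1580 genes tested by both, 236 were called in WT, of which 164 were called with the same sign in ST. Since both assays read the same lysates, this checks the probes and not the treatment.

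The ST panel also held P450 genes that the tested WT genes did not. CYP3A1, the main target of PXR in the rat, stood at 80.2, 68.8 and 51.1 CPM in the vehicle wells of batch 1 and at 3305, 2525 and 3325 CPM with 450 µM chloramphenicol. In batch 2 its vehicle wells lay between 44.4 and 66.7 CPM and its 450 µM wells stood at 349, 551 and 554 CPM. The groups were far apart in both batches, and the L2FC was 4.54 ± 0.24, with 5.56 in batch 1 and 3.28 in batch 2, a difference between batches of -2.30 ± 0.32 (adjusted p = 1.6e-08, edgeR). Cyp3a2 had an L2FC of 2.61 ± 0.22. Cyp2b1, covered by few reads in the WT assay, was at 45.4, 48.7 and 29.0 CPM in the ST vehicle wells of batch 1 and at 769, 882 and 1346 CPM with 450 µM chloramphenicol (L2FC 4.25 ± 0.29), and Ugt2b1 and Ugt2b10 had L2FCs of 2.60 ± 0.21 and 2.97 ± 0.23. Of these, Cyp3a2 and Ugt2b10 were chosen after their values were seen.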

How the data were processed

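Reads were mapped by the authors to rn6 (STAR 2.5.3a), and for each assay a raw count per probe in every well was deposited. Wells were grouped by the chemical, dose, batch and plate of their labels. Probes that shared a symbol were added up, a gene was kept when its counts averaged at least 10 over all wells, and edgeR 4.0.16 (R 4.3.3) with TMM and its quasi-likelihood test was fitted to all wells, for each batch by itself and for both together with batch as a term. A further fit tested the difference between batches. P-values were adjusted by Benjamini-Hochberg over all genes. The members and gene lists were chosen with earlier results of these data known. Genes were named by rule: up to 3 per list with the largest L2FC among those called in both batches with a mean of at least 5 CPM in vehicle or treated wells, the 8 largest rises and 8 largest falls by the same conditions, and a short set of mitochondrial, stress and P450 genes whether called or not. For 84 genes this rule gave a name, and 75 of them were called, of which 1 is not reported here. The fitting code was tested on simulated counts. Alternatives were DESeq2 1.42.0, RLE size factors, total counts, no filter, single probes and an absolute L2FC of at least 1. Others were vehicle of the same plate, only the wells compared, single wells left out, and each of the 5 other treatments left out. P-values within a batch measure the spread between wells of 1 rat. Those of the fit of both batches also take wells, and not rats, as replicates, with batch as a term. Counts are of reads, and the number of reads per library, 2289425 to 8975207 for WT and 558190 to 2210264 for ST, limits what could be tested at low levels.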

Additional observations from a re-analysis of the deposited data

Results flagged for a closer look

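For 7 of the named genes called in both batches, the test of the difference between the batches passed in edgeR and the difference was at least 1 on the log2 scale. The effect of 450 µM chloramphenicol in batch 2 minus that in batch 1 was -2.54 for Gsta5, -2.00 for Gsta2, -1.70 for AABR07035374.1 and -1.41 for LOC100910877, which rose less in batch 2. It was -1.94 for Fgf21, -1.23 for Atf5 and -1.06 for Aldh1l2, which fell more in batch 2. All 7 differences are thus negative.

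Among the 6 vehicle wells of batch 2, a single well stood apart from the other 5 for 5 of the 84 named genes, by a test in which chance sets apart about 1 group in 20. The well was not the same for these genes: Gdf15 and Cdkn1a shared replicate 5, and the others had replicates 2, 4 and 6. A low well stood at 9422 CPM for Apoa1 (the others from 11395 CPM), at 50.8 CPM for Gdf15 (from 64.0 CPM), at 50.7 CPM for Ndufa5 (from 69.9 CPM) and at 40.4 CPM for Ugdh (from 51.7 CPM), and a high well at 10.997 CPM for Cdkn1a (the others up to 8.68 CPM).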

How the results depend on the processing

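Against vehicle, the 252 higher and 487 lower genes of both batches became 454 higher with total counts, 28 and 106 when the wells compared were fitted alone, and 25 and 136 with an absolute L2FC of at least 1 in each batch. The fit of both batches, with 1636 higher and 1754 lower, gave 2957 and 1157 with total counts. The 38 genes that differed between batches became 65 by DESeq2, 14 with only the wells compared and 82 with vehicle of the same plate. The 154 higher and 415 lower genes against 18 µM became 446 and 263 with total counts and 23 and 62 with only the wells compared. Against the 5 other treatments, the 1315 higher and 1281 lower genes became 4055 and 456 with total counts, an alternative chosen, like the other scalings, tools and left-out wells of that comparison, after the data were seen. Leaving out single wells gave 130 to 294 higher and 343 to 555 lower against vehicle, and 84 to 195 and 253 to 522 against 18 µM. Against the other treatments it gave 1102 to 1160 and 900 to 1246. When 1 of the 5 other treatments was left out, the counts ran from 877 higher and 1131 lower without acetaminophen to 1596 and 1552 without ketoconazole. The higher count against vehicle was 144 without the first 450 µM well of batch 1, and 167 and 130 without its first and second vehicle wells. Against 18 µM the counts were 84 and 273 without the third 18 µM well of batch 1, and 253 were lower without its second 450 µM well. The causes were not tested. Of the 75 named genes called, DESeq2 and RLE kept 75, vehicle of the same plate 71, total counts 70, no filter 63 and only the wells compared 26, and none reversed. The 10 CAR and PXR targets that rose numbered 6 with only the wells compared and 9 to 11 otherwise, and the 15 integrated stress response genes that fell numbered 8 and otherwise 12 to 16. Over all lists, 379 counts stayed within 1.5 times and 77 did not under the alternatives that kept all wells or changed the wells fitted, and 1043 did and 97 did not when single wells were left out. Single wells were not left out of the fits of both batches. No paired analysis was possible because the labels number no replicates, and the numbers used here follow only the order of deposit.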

Other observations

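Of the 40 largest rises, 5 genes that act in making ribosomes were picked after their values were seen, and no list of such genes was counted or tested. Polr1a and Polr1b, the largest subunits of RNA polymerase I, which transcribes ribosomal RNA, had L2FCs of 0.92 ± 0.13 and 1.06 ± 0.14 (SE). Taf1d, of the initiation factor of that polymerase, had 1.16 ± 0.20. Nop56, of the box C/D particles that modify ribosomal RNA, and Rrp12, of ribosome export, had 1.04 ± 0.15 and 1.03 ± 0.13. All 5 were called in both batches, but the wells of Polr1a and Taf1d overlapped between the groups in batch 1, where Taf1d stood at 15.9 ± 12.2 CPM (SD, n = 3) against 7.31 ± 1.90 CPM in vehicle (n = 3).

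Other single genes were also noticed only after their values were seen. Ahr, the dioxin receptor, rose from 76.6 ± 11.4 CPM (SD, n = 3) to 190 ± 52.4 CPM (n = 3) in batch 1 and from 85.9 ± 10.8 CPM (n = 6) to 223 ± 6.41 CPM (n = 3) in batch 2. Tsku, a secreted protein of the liver, had an L2FC of 2.27 ± 0.19. Gsta4 was higher in batch 1 (118 ± 18.9 CPM against 35.7 ± 4.19 CPM in vehicle, SD) and at 37.0 ± 6.08 against 38.4 ± 6.31 CPM in batch 2, and the difference between batches passed (-1.78 ± 0.23 on the log2 scale, adjusted p = 9.17e-09, edgeR).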
